A study of Homo sapiens with 12 samples.

Results

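The S100 genes encode small calcium-binding proteins, and 8 of them were followed here across immortalized human podocytes exposed to calcineurin inhibitors: S100A2, S100A3, S100A4, S100A6, S100A10, S100A11, S100A13 and S100A16. They are the rows of the count table whose Ensembl identifiers carry those symbols, 8 of 62262 genes in all and 8 of 20 S100 genes in the table. All 8 passed the filter on low counts, as did 19784 genes in total. The members were chosen by their measured levels in these same 12 libraries, by a rule that sets no threshold, so the members' values below are a description. They are given with no p-value, and nothing is read from counts of members past a threshold.

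The libraries were made from polyadenylated RNA of a conditionally immortalized podocyte line, in 4 groups of 3. The CSA group received cyclosporine A at 100 nM, the TAC group tacrolimus at 100 nM and the VCS group voclosporin at 100 nM, each for 24 h, and the DMSO group received DMSO in their place. VCS is an analog of CSA with an extended side chain on the first amino acid of its cyclic peptide, and TAC is a macrolide that inhibits calcineurin through a different binding protein. Every group carries the same temperature-sensitive SV40 T antigen gene, with growth at 33 °C and differentiation at 37 °C for 7 to 10 days before treatment. The cells therefore stand for a single line in culture, not for donors. The labels do not say whether the 3 libraries of a group came from separate cultures, so p-values measure the spread between these libraries, which may be technical.

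Total counts ranged from 28808213 to 36077072 per library, and mitochondrially encoded genes took 5.82% to 13.4% of them, most in the library numbered 3 of each group. Of 8 podocyte markers, SYNPO, an actin-binding podocyte protein, had 1351 to 2321 counts per library. The slit diaphragm gene NPHS1 had 1 to 11 counts. Summed over the list the podocyte markers stood at 86.7 to 120 CPM (counts per 1000000 counts of a library) in CSA, 87.1 to 101 CPM in TAC, 92.6 to 104 CPM in VCS and 76.5 to 91.1 CPM in DMSO. A list of 8 fibroblast markers summed to 3800 to 6210 CPM, nearly all of it COL1A1, with 107126 to 188245 counts, and THY1, with 12945 to 20855 counts. Other genes of that list were low, such as PDGFRA with 3 to 22 counts and DCN with 18 to 139 counts. Fewer cells of a kind and less RNA per cell cannot be told apart in such bulk libraries.

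An S100 protein has a pair of EF-hand calcium-binding loops and usually works as a dimer. Calcium opens a surface that grips a target protein, so that family members act as calcium sensors inside the cell, and several are also released and act on surface receptors. Annexins, non-muscle myosin and p53 are among the known targets. In kidney, S100A4 has long been used, under the name FSP1, to mark fibroblast-like cells.

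All 8 genes lie on the minus strand of chromosome 1 in the GRCh38 annotation (GENCODE 29). S100A10 (chr1:151982915-151994390) and S100A11 (chr1:152032506-152047907) are 38.1 kb apart, and the other 6 follow after a gap of 1.49 Mb, in the order S100A6 (chr1:153534599-153536244), S100A4 (chr1:153543613-153550136), S100A3 (chr1:153547329-153549372), S100A2 (chr1:153561108-153567890), S100A16 (chr1:153606886-153613145) and S100A13 (chr1:153618787-153631360). S100A3 lies wholly inside the annotated span of S100A4 on the same strand, so reads from shared sequence could go to either gene and both of these values are uncertain. S100A13 overlaps S100A1 on the other strand, and S100A6 and S100A11 each overlap an antisense gene. Whether the counting used strand was not stated in any label, so reads of these overlapping partners may not be told apart.

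Promoter sequences are shown for 4 members: S100A6 and S100A11, the 2 most abundant and the pair whose levels ran most closely together, and S100A4 and S100A10, the 2 members whose 3 VCS libraries all lay above the 3 DMSO libraries. Each is the 250 bases before a RefSeq transcript start on GRCh38.p14, minus strand, written 5′ to 3′. Capitals mark the letters TATAA (the core of a TATA box) and GGAAA (the core that NFAT factors, the targets of calcineurin, bind), searched on both strands.
S100A6 (chr1:153535992-153536241): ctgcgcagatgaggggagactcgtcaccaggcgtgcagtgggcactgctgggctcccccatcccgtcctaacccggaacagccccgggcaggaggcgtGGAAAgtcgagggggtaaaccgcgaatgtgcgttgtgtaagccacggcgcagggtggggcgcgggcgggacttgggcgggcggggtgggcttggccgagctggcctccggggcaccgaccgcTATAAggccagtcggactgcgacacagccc
S100A11 (chr1:152037005-152037254): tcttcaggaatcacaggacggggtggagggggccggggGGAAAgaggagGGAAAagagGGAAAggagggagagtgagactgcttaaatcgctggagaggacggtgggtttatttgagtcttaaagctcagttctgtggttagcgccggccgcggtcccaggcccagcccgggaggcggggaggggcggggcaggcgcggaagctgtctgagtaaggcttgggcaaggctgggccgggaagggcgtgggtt
S100A4 (chr1:153545807-153546056): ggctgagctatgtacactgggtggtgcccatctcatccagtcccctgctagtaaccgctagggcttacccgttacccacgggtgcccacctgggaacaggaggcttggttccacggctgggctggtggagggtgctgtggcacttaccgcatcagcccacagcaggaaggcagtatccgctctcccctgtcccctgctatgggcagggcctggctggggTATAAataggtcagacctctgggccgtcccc
S100A10 (chr1:151993860-151994109): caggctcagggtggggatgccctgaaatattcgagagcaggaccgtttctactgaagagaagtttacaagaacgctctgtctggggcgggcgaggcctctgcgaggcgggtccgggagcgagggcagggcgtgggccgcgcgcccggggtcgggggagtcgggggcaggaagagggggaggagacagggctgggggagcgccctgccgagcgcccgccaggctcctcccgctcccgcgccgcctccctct
TATAA lay 30 bases before the start in S100A6 and 31 bases before it in S100A4. S100A11 had 3 GGAAA matches and S100A6 had 1, and the S100A10 window held neither motif. Over the 12 RefSeq windows of the members (several genes have more than 1 start), 3 held TATAA, against 18.9% of 35116 promoters genome-wide, and 5 held GGAAA, against 55.6%. The AP-1 letters TGANTCA were in 2 of the 12, against 6.6%, CCAAT in 3, against 32.0%, and CACGTG in 0, against 6.3%. Each match is a description of letters and not a bound site.

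Scaled by transcript length, the members spanned more than 2 orders of magnitude. In DMSO cultures S100A6 stood at 860 CPM per kb, rank 60 among 18900 genes with a length, and S100A11 at 393 CPM per kb, rank 188. S100A16 followed at 221 CPM per kb, S100A10 at 192 CPM per kb, S100A13 at 119 CPM per kb and S100A2 at 47.0 CPM per kb. S100A3 and S100A4 lay far below, at 4.70 and 2.81 CPM per kb, ranks 9557 and 11056. The DMSO libraries of neighbours in this order did not overlap. Over all 12 libraries the ranges of S100A16 (157 to 246 CPM per kb) and S100A10 (158 to 244 CPM per kb) did overlap, as did those of S100A3 (3.45 to 5.62) and S100A4 (2.38 to 6.34). The list does not hold every expressed S100 gene: S100A1, which was left off it, had 2.86 to 4.77 CPM per library, above the 1.35 to 3.61 CPM of S100A4. Together the 8 members took 0.0929% of counts in CSA library 3 and 0.12% to 0.148% in the other 11 libraries.

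**Figure D1:**
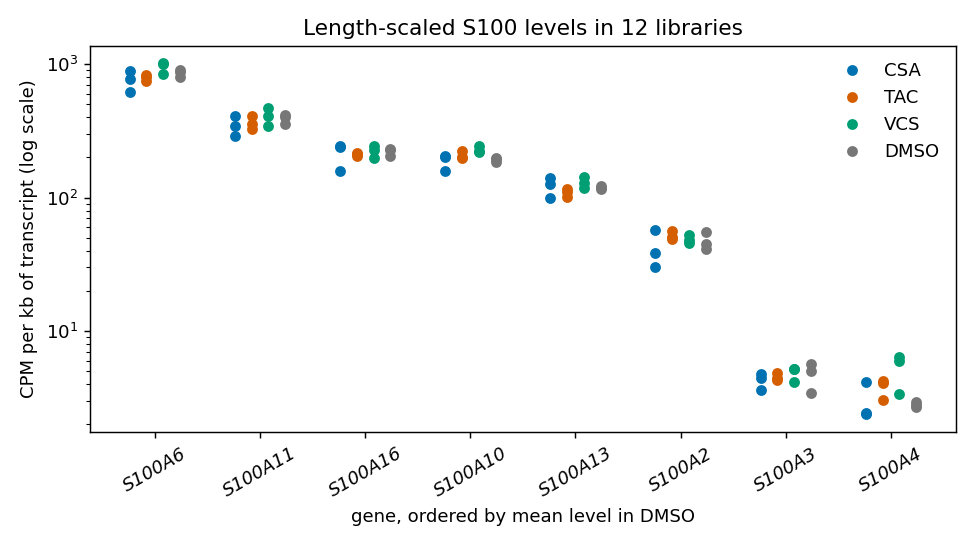
Length-scaled level of each of the 8 S100 genes (CPM per kb of transcript, log axis), genes ordered by their mean in DMSO, with 1 point per library and a colour per group. S100A6 lies at the top and S100A3 and S100A4 lie together at the bottom, below S100A2 in every library.

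S100A6, S100A11 and S100A10 are annexin-binding proteins, and S100A6 and S100A11 led the family in level. S100A6, also called calcyclin, binds CACYBP, an adaptor of ubiquitin ligation. It stood at 525, 595 and 414 CPM in the CSA libraries, at 503, 544 and 561 CPM in TAC, at 573, 680 and 682 CPM in VCS, and at 538, 611 and 587 CPM in DMSO. CSA library 3 was the lowest of the 12 and VCS libraries 2 and 3 the highest. The 3 TAC libraries lay below the 3 VCS libraries, while VCS overlapped DMSO. S100A6 differed by 0.34 on the log2 scale between VCS and CSA (SE 0.13, 95% interval 0.06 to 0.61) and by -0.27 between TAC and VCS (SE 0.13, -0.54 to 0.01). Its distance from DMSO was -0.18 for CSA, -0.11 for TAC and 0.16 for VCS, each with an SE of 0.13. Without CSA library 3 the difference between VCS and CSA was 0.20, and that between CSA and DMSO was -0.05.

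S100A11 binds annexin A1 and takes part in membrane repair. It had 204, 244 and 172 CPM in CSA, 193, 212 and 243 CPM in TAC, 205, 245 and 279 CPM in VCS, and 213, 248 and 240 CPM in DMSO. All 4 groups overlapped. Its log2 difference from DMSO was -0.17 in CSA, -0.11 in TAC and 0.06 in VCS (SE 0.14 each), with 95% intervals that together run from -0.49 to 0.37. The CSA value was -0.06 without CSA library 3.

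S100A10, or p11, is the family member that has lost calcium binding and is held in its active form. It joins annexin A2 in a tetramer at the plasma membrane and brings plasminogen to the cell surface. It had 184, 187 and 143 CPM in CSA, 181, 184 and 203 CPM in TAC, 201, 204 and 222 CPM in VCS, and 179, 176 and 168 CPM in DMSO. VCS libraries were the 3 highest but for TAC library 3, and all of them lay above every CSA and every DMSO library. The log2 difference between VCS and DMSO was 0.26 (SE 0.11, 0.03 to 0.49), or 1.20-fold, and that between VCS and CSA was 0.29 (SE 0.11, 0.06 to 0.52). Without CSA library 3 the difference between VCS and CSA was 0.17. TAC libraries also lay above all DMSO libraries, by 0.12 (SE 0.11, -0.11 to 0.35), and CSA differed from DMSO by -0.02, or by 0.09 without CSA library 3.

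S100A13 takes part in the export of FGF1 and interleukin 1 alpha, which leave the cell without a signal peptide. It had 79.0, 71.0 and 55.5 CPM in CSA, 65.6, 62.0 and 56.4 CPM in TAC, 72.9, 80.6 and 67.0 CPM in VCS, and 68.6, 66.9 and 65.4 CPM in DMSO. CSA held both the lowest and the second highest library. TAC libraries lay below all VCS libraries, with a log2 difference of -0.26 (SE 0.12, -0.52 to 0.00). Set against DMSO, CSA gave 0.03, TAC -0.13 and VCS 0.13 (SE 0.12 each), and CSA gave 0.16 without its library 3.

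S100A16, a widely expressed member, had 250, 254 and 163 CPM in CSA, 219, 225 and 212 CPM in TAC, 236, 255 and 207 CPM in VCS, and 240, 237 and 211 CPM in DMSO. The groups overlapped, and CSA library 3 stood well below the other 11 libraries. S100A2, a mostly nuclear protein that binds p53, had 36.0, 23.9 and 19.0 CPM in CSA, 35.5, 31.7 and 30.4 CPM in TAC, 33.0, 28.8 and 30.3 CPM in VCS, and 34.5, 28.0 and 25.8 CPM in DMSO. Library 1 was the highest of its group in all 4 groups. For S100A16 the log2 differences from DMSO were -0.05, -0.07 and 0.02 in CSA, TAC and VCS (SE 0.15 each), and for S100A2 they were -0.16, 0.15 and 0.06 (SE 0.19 each). Without CSA library 3 the CSA values were 0.14 for S100A16 and 0.03 for S100A2.

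S100A3 and S100A4 were the rare members, with 75 to 131 counts and 46 to 113 counts per library. S100A3, a zinc-binding protein best known from the hair cuticle, had 3.41, 3.22 and 2.61 CPM in CSA, 3.20, 3.09 and 3.47 CPM in TAC, 3.71, 3.00 and 3.76 CPM in VCS, and 3.62, 4.03 and 2.47 CPM in DMSO. The DMSO group alone covered the range of the other 3 groups. S100A4, or metastasin, binds the heavy chain of non-muscle myosin IIA and promotes the disassembly of its filaments. It had 1.35, 2.36 and 1.39 CPM in CSA, 2.33, 1.72 and 2.40 CPM in TAC, 1.92, 3.42 and 3.61 CPM in VCS, and 1.58, 1.54 and 1.68 CPM in DMSO. The DMSO libraries were close together, the VCS libraries all lay above them, and VCS libraries 2 and 3 were the 2 highest of the 12.

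S100A4 had the widest difference of the 8 in the comparison of VCS with DMSO, at 0.90 on the log2 scale (SE 0.28, 0.29 to 1.5) or 1.86-fold, from 60, 113 and 101 counts in VCS against 52, 50 and 51 counts in DMSO. Leaving out 1 library at a time moved this value between 0.74, without VCS library 3, and 1.13, without VCS library 1. TAC libraries too all lay above DMSO, by 0.42 (SE 0.28, -0.19 to 1.04), and CSA differed from DMSO by 0.08 (SE 0.29, -0.53 to 0.70). VCS exceeded CSA by 0.81 (SE 0.28, 0.21 to 1.42), with overlapping libraries.

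**Figure D2:**
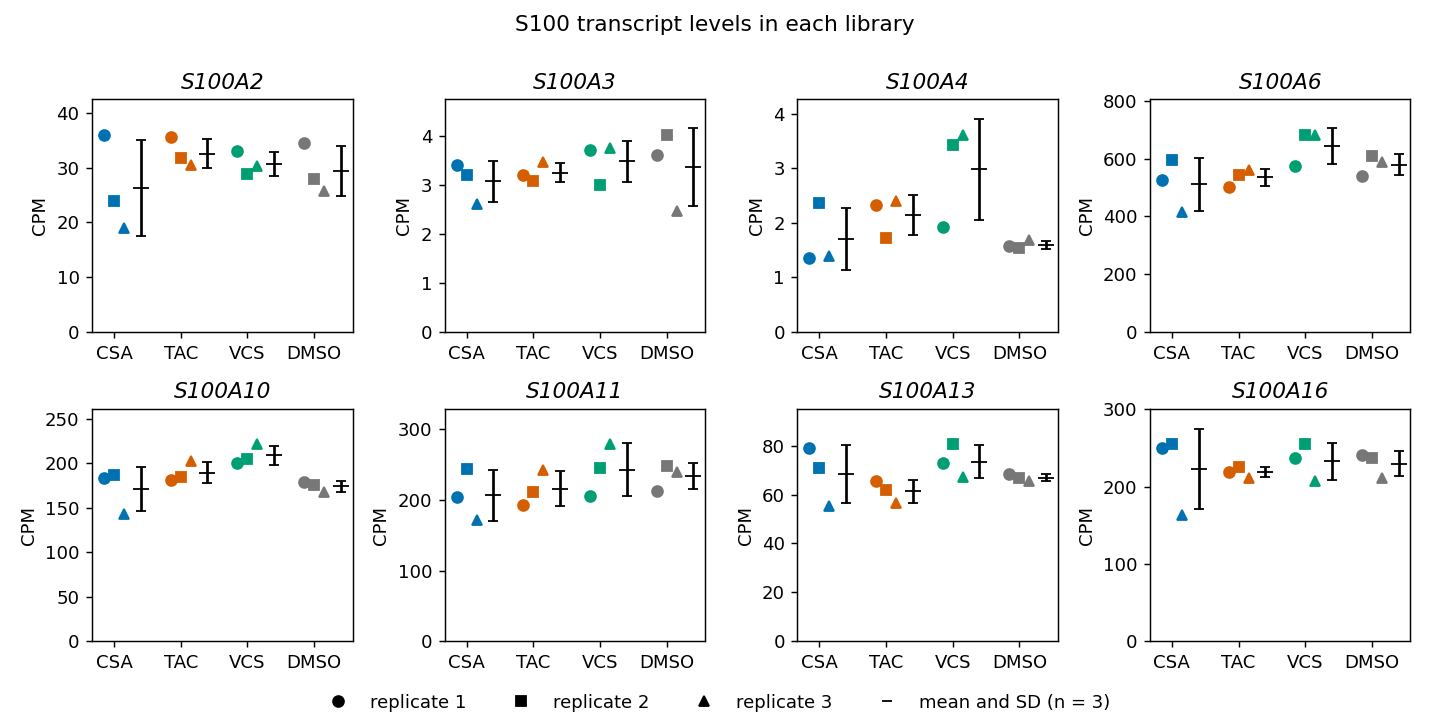
Level of each S100 gene in CPM (linear axes from 0) in the 3 libraries of the CSA, TAC, VCS and DMSO groups, with symbols for the replicate number and the mean and SD (n = 3) beside the points. The 3 VCS libraries lie above the 3 DMSO libraries for S100A4 and S100A10, and CSA library 3 is the lowest point in 6 of the 8 panels.

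Set against DMSO, the members' log2 differences ran from -0.18 to 0.08 for CSA and from -0.13 to 0.42 for TAC. No member passed an adjusted p of 0.05 in edgeR's quasi-likelihood test, from which no absence of a difference is read. For CSA, 2 of 8 members had a log2 difference above 0, the median was -0.09, and 0 members had CSA libraries all above or all below DMSO. Across all genes the median was -0.004, 2 genes (0.0101%) passed the test, and for 9.87% the libraries of the 2 groups did not overlap. For TAC, 3 of 8 members were above 0, the median was -0.06, and 2 members (S100A4 and S100A10) had libraries all above DMSO, where 5.99% of all genes did. There 7 genes (0.0354%) passed the test. For VCS, all 8 members were above 0, with differences of 0.02 to 0.90 and a median of 0.10, against a median of 0.004 over all genes. That shared direction did not hold when 1 library was left out. Without DMSO library 3, S100A2 stood at -0.02 and S100A3 at -0.13. S100A11 stood at -0.06 without VCS library 3, and S100A16 at -0.05 without VCS library 2. S100A4, S100A6, S100A10 and S100A13 stayed above 0 in every such fit. The libraries of S100A4 and S100A10 lay all above DMSO, where 3.32% of all genes did, and 1 gene (0.00505%) passed the test. Since the list was drawn up on these libraries, nothing is read from these counts. The 3 comparisons share the DMSO libraries.

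In 3 of the 6 comparisons the deviations of same-numbered libraries from their group means correlated at over 0.1 in all 3 pairs. VCS and DMSO missed that cut at 0.0975, with a highest value of 0.428. With the replicate number as a block, the same test passed 6 genes for CSA against DMSO. It passed 41 genes for TAC against DMSO and 41 genes for TAC against VCS, with 0 members among the genes of these 3 comparisons. Over the fit with group as the only term and 18 alternatives, DESeq2 included, 114 comparisons were made. In 0 of them was a member past the threshold, and nothing about the members is read from this count either.

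VCS and CSA, which share the cyclic peptide scaffold, were compared at the same dose and time. All 8 members had a higher fitted level in VCS than in CSA, with a median log2 difference of 0.23, against 0.003 over all genes. S100A4, S100A6 and S100A10 had the values given above. The other 5 members differed by 0.06 to 0.23, and their intervals together run from -0.25 to 0.62. S100A10 was the 1 member whose VCS libraries lay all above CSA, where 2.82% of all genes did, and 0 members passed the test, where 2 genes (0.0101%) of all did. Nothing is read from these counts. Without CSA library 3 the median was 0.09, and without the 4 libraries numbered 3 it was 0.04. S100A16 stood at -0.12 and S100A13 at -0.03 without CSA library 3, so the shared direction of all 8 rests on that library.

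TAC differed from CSA by a median of 0.07 over the 8 members, with 6 above 0, against 0.004 over all genes. Here 0 members had separate libraries, where 13.6% of all genes did, and 0 members passed the test, where 6 genes (0.0303%) of all did. Against VCS, TAC gave 1 member above 0 and a median of -0.16, against -0.004 over all genes. S100A6 and S100A13 had TAC libraries all below VCS, where 4.65% of all genes did, and 0 members passed the test, where 5 genes (0.0253%) of all did. These counts too are given as a description. For the 6 members above S100A3 and S100A4 in level, no interval in any of the 6 comparisons reached below -0.56 or above 0.71.

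**Figure D3:**
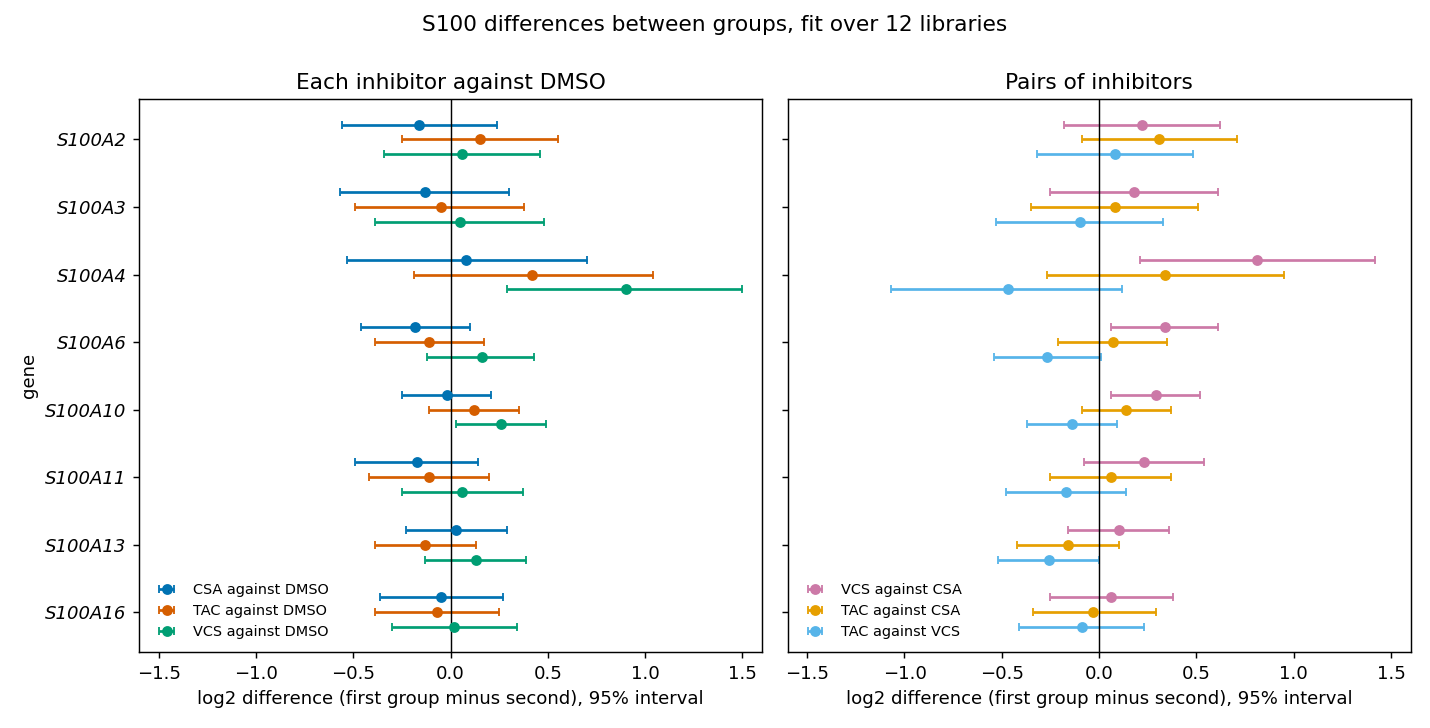
Fitted log2 difference (first group minus second) of each S100 gene with its 95% interval, inhibitors against DMSO in the left panel and pairs of inhibitors in the right. S100A4 has the widest intervals, VCS against DMSO lies at 0.90 for it, and all 8 VCS against CSA points lie above 0.

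CSA library 3 stood apart from the rest. In it all 8 members lay below their own mean over the 12 libraries, and 6 of 8 were at their lowest. The median deviation there was -0.41 on the log2 scale, and that of the other 11 libraries lay between -0.11 and 0.23, with VCS libraries at 0.10, 0.16 and 0.23. VCS library 3 held the highest value of 4 members and VCS library 2 that of 2. The members' transcripts are short, with median lengths of 563 to 1037 bases. In the same CSA library, the 536 genes with transcripts under 1 kb and a mean log2 CPM of at least 5, some members among them, had a median deviation of -0.26, and the 1750 such genes of 4 kb or more had 0.10. With no floor on level, the 2972 tested genes under 1 kb had -0.10 there and the 3793 genes of 4 kb or more had 0.09. These length classes were set after the S100 values had been seen, and their part in the S100 differences was not tested. Without CSA library 3 the members' median for CSA against DMSO was 0.06, in place of -0.09.

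**Figure D4:**
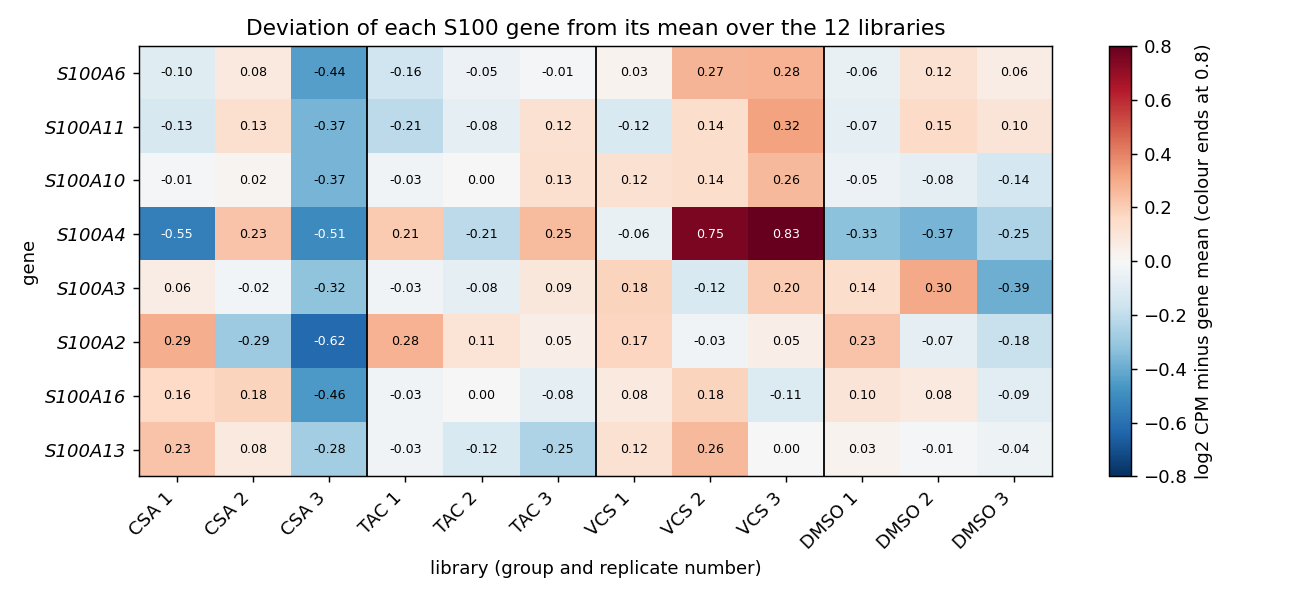
Deviation of each S100 gene from its own mean over the 12 libraries (log2 CPM, colour and printed value), with genes as rows and libraries as columns. CSA library 3 is below 0 for all 8 genes, and S100A4 reaches 0.75 and 0.83 in VCS libraries 2 and 3.

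S100A6 and S100A11 ran together over the 12 libraries, with Pearson's r 0.911 and Spearman's rho 0.930 on log2 CPM. Within groups r was 0.923, and it was 0.794 without CSA library 3 and VCS library 3, the 2 farthest from the S100A6 median. In each pair the farthest libraries were chosen by the level of the gene named first. S100A13 and S100A16, which lie 5.64 kb apart with S100A14 between them, had r 0.808 and rho 0.797, with 0.899 within groups and 0.702 without the 2 farthest libraries. S100A4 and S100A10 had r 0.759 and rho 0.825, but 0.459 within groups. S100A6 and S100A10 had r 0.786, which was 0.314 without the 2 farthest libraries, so that value rests on them. S100A2 and S100A11 had r 0.0743 and rho -0.357, but r was -0.69 without CSA library 3. It was -0.734 without CSA libraries 2 and 3, the farthest from the S100A2 median, so the value near 0 rests on them. S100A3 and S100A4, whose spans overlap, had r 0.15. These are 6 of 28 pairs, given as a description, since all pairs share libraries and their depth.

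Each member was set against 13522 genes with a symbol and a mean log2 CPM of at least 1. Those most like it over the 12 libraries were named by Pearson's r. For S100A6 they were ATP5ME at r 0.937, COX7C at r 0.932 and OST4 at r 0.916. For S100A10 they were COX7B at r 0.926, RPL34 at r 0.894 and UQCRH at r 0.887, and for S100A11 MRPS21 at r 0.960, CETN2 at r 0.956 and COX17 at r 0.948. All likeness values here include CSA library 3. Spearman's rho of the named pairs ran from 0.622 (S100A3 and TICAM2) to 0.965 (S100A16 and RPL27). S100A16 was most like RPL27 at r 0.977, SRI at r 0.969 and GPX1 at r 0.964, and S100A13 most like TPD52L2 at r 0.934, MAF1 at r 0.927 and IMPA2 at r 0.923. S100A2 was nearest to WASF1 at r 0.940, UTP6 at r 0.931 and CKS1B at r 0.924. Of the rare members, S100A4 was nearest to MALL at r 0.911, BPGM at r 0.860 and SPEN-AS1 at r 0.846. S100A3 was nearest to TMEM177 at r 0.837, GCA at r 0.834 and TICAM2 at r 0.764.

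The other 12 S100 genes in the table were rare or silent. S100A7, S100A7A, S100A12, S100B, S100G and S100Z had at most 2 counts in any library, and the remaining 6 were tested with 0 passing in any of the 6 comparisons. S100B is the member known from glia and melanocytes and S100A12 from neutrophils, and S100A12 had 0 counts throughout, which allows up to 0.107 CPM in a library where 3 counts are taken as the limit. S100A1, S100A5 and S100A14 differed from DMSO by -0.32 to 0.22 on the log2 scale in all 3 inhibitor groups. The SE was 0.21 for S100A1 and 0.24 for S100A14, but 0.50 to 0.52 for S100A5, which had 6 to 27 counts per library.

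S100P, which binds ezrin, was highest in the TAC libraries. It had 72, 77 and 72 counts in TAC, 49, 63 and 68 in CSA, 48, 31 and 48 in VCS, and 18, 29 and 52 in DMSO. The TAC libraries lay above all DMSO libraries. TAC against DMSO gave a log2 difference of 1.09 (SE 0.35, 0.33 to 1.84), with an unadjusted p of 0.00821 and an adjusted p of 0.92 in edgeR's quasi-likelihood test, so it did not pass. The paired fit, with the replicate number as a block, gave 1.15 and an adjusted p of 0.186.

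S100A8 and S100A9 form calprotectin, a product of neutrophils, monocytes and stressed keratinocytes. S100A8 had 3, 1 and 5 counts in CSA, 1, 4 and 3 in TAC, 30, 17 and 5 in VCS, and 19, 7 and 5 in DMSO. S100A9 had 3, 5 and 9 counts in CSA, 7, 8 and 8 in TAC, 42, 25 and 8 in VCS, and 27, 7 and 14 in DMSO. VCS libraries 1 and 2 and DMSO library 1 were the high ones for S100A8, with the same 2 VCS libraries and DMSO library 1 leading for S100A9. All differences of these genes rest on few counts. S100A8 differed from DMSO by -1.80 in CSA (SE 0.77), -1.95 in TAC (SE 0.79) and 0.78 in VCS (SE 0.63). For S100A9 these values were -1.54 (SE 0.64), -1.10 (SE 0.61) and 0.67 (SE 0.55). Between VCS and CSA the log2 differences were 2.58 for S100A8 (SE 0.74) and 2.21 for S100A9 (SE 0.62), each with an adjusted p of 1 in edgeR's quasi-likelihood test. Between TAC and VCS they were -2.73 (adjusted p 0.952) and -1.77 (adjusted p 1).

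Several markers of other cell types were highest in the same 3 libraries, and others were not. The basal keratin KRT14 had 10, 9 and 15 counts in CSA, 15, 9 and 8 in TAC, 199, 150 and 41 in VCS, and 196, 56 and 52 in DMSO. KRT5, its partner, had 45, 62 and 32 counts in CSA, 80, 40 and 39 in TAC, 508, 336 and 138 in VCS, and 424, 179 and 166 in DMSO. For both, VCS libraries 1 and 2 and DMSO library 1 were the 3 highest. KRT16 did not follow that order, with its highest counts of 110 in CSA library 3 and 114 and 116 in TAC libraries 2 and 3, and KRT6A had 242 and 251 counts in those TAC libraries, against 222 in VCS library 2. All 7 keratinocyte and basal epithelial markers were detected, and their summed level was 27.0 to 31.2 CPM in CSA, 32.3 to 37.6 CPM in TAC, 35.4 to 64.9 CPM in VCS and 39.2 to 58.3 CPM in DMSO.

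Some surfactant genes and the leukocyte gene PTPRC showed some of the same order, and other airway and myeloid markers did not. SFTPC had 7, 12 and 8 counts in CSA, 7, 13 and 1 in TAC, 58, 35 and 5 in VCS, and 51, 3 and 6 in DMSO. SFTPA1 had 4 to 9 counts in CSA, 1 to 12 in TAC, 59 to 148 in VCS and 99 to 140 in DMSO, so all VCS and DMSO libraries lay above the other 6. SFTPB and MUC5B did not follow that order. SFTPB had 560, 488 and 330 counts in CSA, 523, 413 and 480 in TAC, 569, 284 and 183 in VCS, and 334, 226 and 223 in DMSO. MUC5B had 148, 133 and 150 counts in CSA, 157, 174 and 169 in TAC, 74, 417 and 387 in VCS, and 66, 89 and 65 in DMSO. The 8 airway and alveolar markers summed to 15.5 to 23.2 CPM in CSA, 19.4 to 23.2 CPM in TAC, 26.3 to 36.7 CPM in VCS and 17.0 to 26.5 CPM in DMSO. PTPRC was low, with 14 and 11 counts in VCS libraries 1 and 2, 13 in DMSO library 1 and 3 to 9 in the other 9 libraries. LYZ, made by myeloid and secretory cells, had 52 counts in VCS library 1, 33 in DMSO library 1 and 6 to 28 in the rest. TYROBP too was highest in VCS library 1, at 10 counts, but the other myeloid markers peaked elsewhere. CD14 peaked at 66 counts in CSA library 1, FCER1G at 13 in CSA library 2 and CSF1R at 39 in TAC library 1. ITGAM and CD68 peaked in CSA library 3, at 84 and 3056 counts. The 8 myeloid markers, of which CD68 took most, summed to 72.6 to 93.3 CPM in CSA, 59.7 to 82.3 CPM in TAC, 78.8 to 81.8 CPM in VCS and 71.2 to 82.7 CPM in DMSO. The part of these markers in the S100A8 and S100A9 values was not tested.

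**Figure D5:**
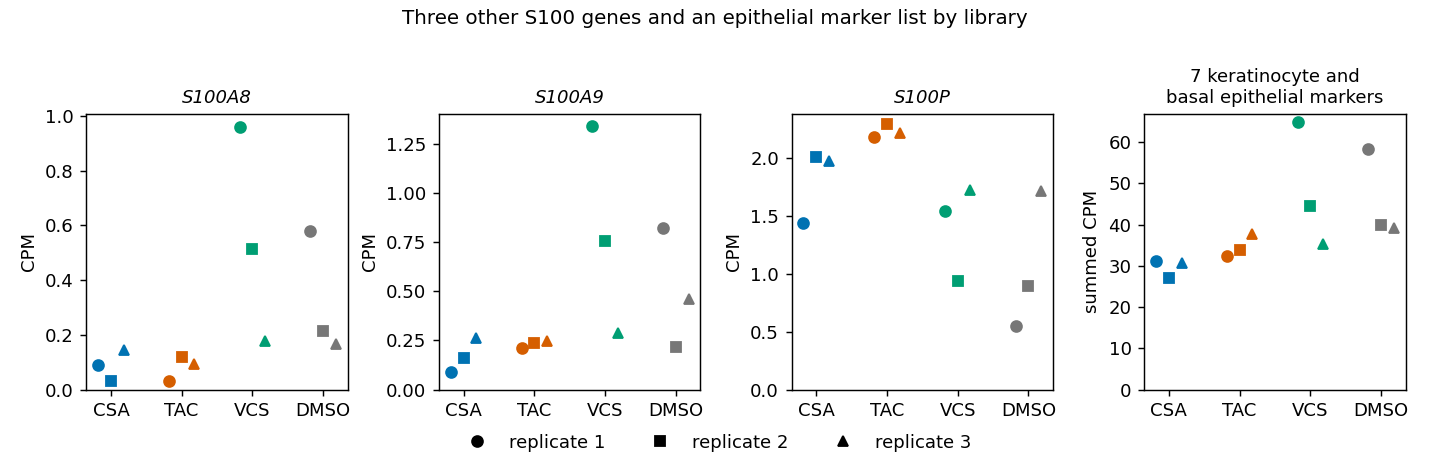
Level of S100A8, S100A9 and S100P and the summed level of 7 keratinocyte and basal epithelial markers (CPM, linear axes from 0) in the 3 libraries of the CSA, TAC, VCS and DMSO groups. VCS library 1 has the highest S100A8, S100A9 and marker level, and the 3 TAC libraries have the highest S100P.

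The fused-type genes, which carry an S100 domain at the start of a long keratinocyte structural protein, numbered 7, of which 4 were tested and 0 passed. FLG, which encodes filaggrin, had 125 ± 18.1 CPM in CSA, 93.4 ± 18.6 CPM in TAC, 124 ± 34.1 CPM in VCS and 115 ± 27.0 CPM in DMSO (SD, n = 3 each). The libraries of the 4 groups overlapped.

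Partners and receptors of the family were followed in lists of other genes, drawn up with earlier results of these data known. Over all lists, 98 genes that are not members were tested and 0 passed an adjusted p of 0.05 in any of the 6 comparisons by edgeR's quasi-likelihood test. At an unadjusted p under 0.05 there were 9 listed genes (9.18%) for CSA against DMSO, where 3.75% of all genes passed, 4 (4.08%) for TAC against DMSO, where 4.65% did, and 1 (1.02%) for VCS against DMSO, where 3.27% did. Between inhibitors there were 2 (2.04%) for VCS against CSA, where 2.54% of all genes passed, 12 (12.2%) for TAC against CSA, where 7.52% did, and 4 (4.08%) for TAC against VCS, where 3.63% did.

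Among 11 annexins and AHNAK-type genes, 0 passed in either direction. ANXA2, the partner of S100A10, was far more abundant than its light chain, at 2960 ± 135 CPM in CSA, 3060 ± 133 CPM in TAC, 3100 ± 230 CPM in VCS and 2920 ± 122 CPM in DMSO (SD, n = 3 each). Its log2 differences from DMSO were 0.02, 0.06 and 0.08 in the same order of inhibitors, each with an SE of 0.10. ANXA1, the partner of S100A11, stood at 261 ± 18.3 CPM in CSA, 279 ± 33.4 CPM in TAC, 293 ± 47.3 CPM in VCS and 285 ± 30.1 CPM in DMSO. AHNAK, a giant scaffold that binds the S100A10 and annexin A2 complex, had 2040 ± 421 CPM in CSA, 1650 ± 426 CPM in TAC, 1960 ± 563 CPM in VCS and 1520 ± 396 CPM in DMSO, with wide overlap. For the membrane repair gene DYSF the log2 difference between CSA and DMSO was 0.23 (SE 0.11, adjusted p 0.939 in edgeR's quasi-likelihood test), and 0.13 without CSA library 3.

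Of 30 other partners, 0 passed against DMSO. MYH9, the non-muscle myosin heavy chain bound by S100A4, had 4460, 4140 and 4680 CPM in CSA, 4290, 3450 and 3200 CPM in TAC, 4520, 3830 and 3070 CPM in VCS, and 3830, 3130 and 3040 CPM in DMSO. The CSA libraries lay above all DMSO libraries, by 0.41 on the log2 scale (SE 0.16, 0.07 to 0.75, adjusted p 0.939 in edgeR's quasi-likelihood test). CACYBP, the partner of S100A6, had 75.7 ± 11.7 CPM in CSA, 85.6 ± 1.97 CPM in TAC, 78.9 ± 1.69 CPM in VCS and 83.1 ± 6.62 CPM in DMSO. FGF1, a cargo of the S100A13 route, had log2 differences from DMSO of -0.06, 0.08 and 0.11 in CSA, TAC and VCS (SE 0.11 each).

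SYT1, which joins S100A13 in that route, lay above all DMSO libraries in all 9 inhibitor libraries. It had 4.50, 5.41 and 5.56 CPM in CSA, 5.11, 4.99 and 4.46 CPM in TAC, 5.09, 5.48 and 4.72 CPM in VCS, and 3.86, 4.31 and 3.20 CPM in DMSO. The log2 differences of 0.44, 0.36 and 0.43 (SE 0.16 each) had adjusted p of 0.939, 0.92 and 0.963 in edgeR's quasi-likelihood test, so none passed.

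PLAT, the tissue plasminogen activator whose product acts with S100A10 at the cell surface, was lowest in TAC. It had 120, 102 and 103 CPM in TAC, 158, 136 and 168 CPM in CSA, 183, 138 and 155 CPM in VCS, and 175, 128 and 138 CPM in DMSO. All 3 TAC libraries lay below every library of the other groups. Between TAC and VCS the log2 difference was -0.55 (SE 0.14, -0.85 to -0.25), with an adjusted p of 0.649 in edgeR's quasi-likelihood test. In the paired fit, with the replicate number as a block, it was -0.54 with an adjusted p of 0.0254, past the threshold. Between TAC and CSA the log2 difference was -0.51 (SE 0.14) with an adjusted p of 0.494. The block gave -0.51 there with an adjusted p of 0.0335, past the threshold, though same-numbered CSA and TAC libraries correlated at as little as 0.00694. Against DMSO the log2 difference was -0.44 (SE 0.14) with an adjusted p of 0.92, or 0.0629 in the paired fit. PLAT came from a list drawn up with earlier results of these data known, and was named for its small unadjusted p against DMSO. Its values are therefore a description, and nothing is read from its passing with the block.

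Of 10 receptor genes for released S100 proteins, 9 were tested and 0 passed. AGER, the receptor for advanced glycation end products, was rare, at 2.05 ± 0.0464 CPM in CSA, 1.95 ± 0.640 CPM in TAC, 2.12 ± 0.795 CPM in VCS and 2.58 ± 0.607 CPM in DMSO (SD, n = 3 each). ERBB2 and SDC1 had log2 differences between CSA and DMSO of 0.29 (SE 0.10) and 0.28 (SE 0.12), each with an adjusted p of 0.939 in edgeR's quasi-likelihood test. ALCAM differed from DMSO by 0.22, 0.21 and 0.27 in CSA, TAC and VCS (SE 0.13 each). Without CSA library 3 the CSA values were 0.19 for ERBB2, 0.13 for SDC1 and 0.09 for ALCAM.

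Of 42 other EF-hand genes, 38 were tested and 0 passed. PPP3R1, the EF-hand subunit of calcineurin itself, had 57.0 ± 4.89 CPM in CSA, 64.9 ± 5.93 CPM in TAC, 55.5 ± 8.92 CPM in VCS and 54.7 ± 4.44 CPM in DMSO (SD, n = 3 each). Its log2 difference between TAC and DMSO was 0.25 (SE 0.12, -0.02 to 0.51). MICU2, a calcium gate of the mitochondrial uniporter, differed by 0.19 between TAC and DMSO (SE 0.10), and RCN3, of the endoplasmic reticulum, by -0.44 (SE 0.23).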

How the data were processed

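RNA sequencing of 12 libraries, 3 for each of 4 groups, was read from 1 table of expected counts per gene, which the authors deposited. Per the submitters' processing notes Salmon and the GRCh38 build were used; versions and strand setting are not given in the sources used here. The labels mention in-line molecular identifiers but not whether the counts collapse them. The values were rounded to whole numbers, 19784 of 62262 genes passed edgeR's filterByExpr (minimum count 10), and 22339 genes had no count. Of the identifiers, 62252 had a symbol, and 0 columns were left unused.

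Libraries were scaled by TMM and fitted in edgeR 4.0.16 (quasi-likelihood, group as the only term, all 12 libraries, 8 residual degrees of freedom, R 4.3.3, limma 3.58.1), with Benjamini-Hochberg adjustment over all genes tested and a threshold of 0.05. CPM use TMM-scaled totals, and log2 CPM a prior count of 2. Intervals cover the fit's spread between libraries; a limit from a count of 0 covers counting error only. Lengths are the median protein-coding transcript in GENCODE 29. Figures used matplotlib 3.10.9, and the fit was tested on simulated data.

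The 8 S100 members and the other lists were chosen with earlier results of these data known. Named genes were all S100 genes, textbook partners (ANXA1, ANXA2, MYH9, CACYBP, FGF1, AGER, AHNAK), and from each list the genes that passed and up to 3 with the smallest unadjusted p against DMSO. For each member the 3 most correlated genes were named. Marker genes and FLG were named in addition, after their values had been seen.

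Replicate numbers come from the labels. Deviations of same-numbered libraries from their group means correlated at over 0.1 in all 3 pairs for CSA and DMSO (0.103 to 0.22), TAC and DMSO (0.108 to 0.377) and TAC and VCS (0.232 to 0.532). In the other 3 comparisons they did not. For the comparisons that met this cut, counts of passing genes are also given from a paired fit, with the replicate number as a block. The paired fit is also given for S100P in TAC against DMSO, and for PLAT in TAC against DMSO and TAC against VCS. PLAT with the block is given for TAC against CSA too, a comparison that did not meet the cut. Among the alternatives, counts of genes passing with the block are listed for every comparison, whether or not it met the cut. All log2 differences, SE and intervals come from the fit without the block unless another fit is named. No libraries of a group agreed within counting noise: the chi-square per degree of freedom was at least 9.32. Alternatives were other size factors, no filter, DESeq2 1.42.0, fits of only the groups compared, the replicate block, and fits without the 4 libraries numbered 3 or without each library in turn. Protein sequences were not used here.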

Additional observations from a re-analysis of the deposited data

How the results depend on the processing

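No result changed sign past the threshold, and RLE size factors in place of TMM moved no count of passing genes by over 1.5 times. The counts of genes passing, in the order CSA, TAC and VCS against DMSO, then VCS against CSA, TAC against CSA and TAC against VCS, were 86, 131, 69, 70, 87 and 101 with no filter, and 7, 32, 6, 10, 46 and 34 by DESeq2. With the replicate block they were 6, 41, 0, 6, 65 and 41. Fitting only the groups compared gave 1 for TAC against DMSO, 0 for VCS against DMSO, 1 for TAC against CSA and 0 for TAC against VCS. Without the 4 libraries numbered 3 the counts were 0 for CSA against DMSO, 3 for TAC against DMSO, 6 for VCS against CSA, 1 for TAC against CSA and 9 for TAC against VCS. Leaving out 1 library at a time gave 0 to 2, 0 to 10, 0 to 8, 0 to 7, 0 to 6 and 0 to 12 in the first order. The cause of these moves was not tested.

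Listed genes that are not members passed only with no filter (S100A9 for VCS against CSA at 2.22, adjusted p 0.0382; S100A8 at -2.73, adjusted p 0.044, and PLAT at -0.55, adjusted p 0.0114, for TAC against VCS; PLAT at -0.51, adjusted p 0.0414, for TAC against CSA) and with the replicate block (PLAT at -0.54, adjusted p 0.0254, for TAC against VCS and at -0.51, adjusted p 0.0335, for TAC against CSA), so 1, 2 and 1 genes passed with no filter and 1 and 1 with the block; leaving out libraries gave 0 to 0. The block changed no other call of a listed gene.

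The median log2 difference of the 8 members ran over the fits without 1 library from -0.15 to 0.06 for CSA against DMSO, -0.10 to 0.03 for TAC against DMSO, 0.10 to 0.17 for VCS against DMSO, 0.09 to 0.30 for VCS against CSA, -0.04 to 0.19 for TAC against CSA and -0.22 to -0.10 for TAC against VCS. Without the 4 libraries numbered 3 it was -0.09 for TAC against CSA and 0.04 for VCS against CSA. S100A8 had 1 to 30 counts per library and S100A9 3 to 42, so their differences rest on few counts.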
